A study of Homo sapiens with 25 samples.

Results

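Acetylation of lysine 27 of histone H3 (H3K27ac) was compared between NCI-H2087 and 3 other human lung adenocarcinoma cell lines, NCI-H358, NCI-H441 and HCC364, by chromatin immunoprecipitation and sequencing (ChIP-seq). The labels name no treatment, and the cells were grown in RPMI medium with serum. The labels give neither genotype nor passage, and an established line stands for 1 tumour-derived population. H3K27ac, H3K4me1 and the lung lineage factor NKX2-1 have a peak list in all 4 lines. NCI-H2087 has 8 more lists, for FOXA1, FOXA2, SOX2, c-Jun, EP300, RNA polymerase II, H3K4me3 and CTCF. Every combination of line and antibody is 1 library, so a difference between lines has no replicate check, and the few p-values below come from permuting whole lines.

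The members were chosen from the 4 H3K27ac lists alone. Of 19974 protein-coding genes, 283 had an H3K27ac peak within 1 kb of an annotated gene end in NCI-H2087 and in no other line, and are called gained. Another 192 had one in NCI-H358, NCI-H441 and HCC364 but not in NCI-H2087, and are called lost. Merging the lists (1 bp overlap) gave 84925 regions. Of these, 70338 were distal, meaning that no protein-coding gene end lay within 1 kb. The distal members were 7551 regions acetylated in NCI-H2087 only and 1341 acetylated in all lines but NCI-H2087. "Gained" and "lost" are names for a pattern across lines and say nothing of an order in time. The members' own H3K27ac is therefore given as description, and the other antibodies, which the choice did not use, carry the comparisons.

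H3K27ac marks active promoters and enhancers and is laid down mainly by EP300 and its relative CREBBP. H3K4me3 marks promoters, including many that are silent but poised, whereas H3K4me1 marks enhancers whether they are active or only primed. NKX2-1, FOXA1 and FOXA2 are transcription factors of the embryonic foregut and the lung epithelium, where the forkhead factors can open closed chromatin. SOX2 is a factor of the airway and foregut, c-Jun is a subunit of AP-1, and CTCF is the insulator protein that anchors chromatin loops.

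The H3K27ac lists were of like length, with 51482 peaks for NCI-H2087, then 47136 (NCI-H358), 47228 (NCI-H441) and 56384 (HCC364), on chromosomes 1 to 22 and X. The lowest local background that the peak values imply, a measure of relative depth in fragments, was 2.59, 2.54, 2.78 and 2.73 in the same order. The other NCI-H2087 lists differed widely in length. They ran from 7406 peaks (EP300), 9262 (SOX2) and 23360 (c-Jun) to 82111 (FOXA2) and 91807 (H3K4me1). Shares of different antibodies are therefore not ranked against each other. Of 8 lung adenocarcinoma markers, 8 were acetylated at an end in NCI-H2087, NCI-H441 and HCC364 and 7 in NCI-H358, which lacked SFTPB. Of 14 markers of other cell types, 3 were acetylated in each line. The fibroblast and muscle markers COL1A1 and ACTA2 were acetylated at an end in all 4 lines, the T cell marker CD3E in all lines but HCC364, and the monocyte marker CD14 in HCC364 only. The other 10, among them PTPRC, MS4A1, PECAM1, VWF and CDH5, were acetylated in no line.

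NCI-H2087 had acetylated ends at 58.1% of genes (11597), beside 11356 (NCI-H358), 11226 (NCI-H441) and 11721 (HCC364). Its 283 gained genes are 1.42% of all genes. The same count for private gene ends was 279 (NCI-H358), 147 (NCI-H441) and 549 (HCC364), so NCI-H2087 lies within the range of the other lines. Its 192 lost genes are 0.961% of all genes, the fewest of the 4 lines. The corresponding number was 335 (NCI-H358), 274 (NCI-H441) and 333 (HCC364). All 4 lines were acetylated at 9870 genes and no line at 6832. These counts depend on the set of lines. Gained genes numbered 430 without NCI-H358, 429 without NCI-H441 and 492 without HCC364, and lost genes 309, 367 and 278 in the same order.

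**Figure D1:**
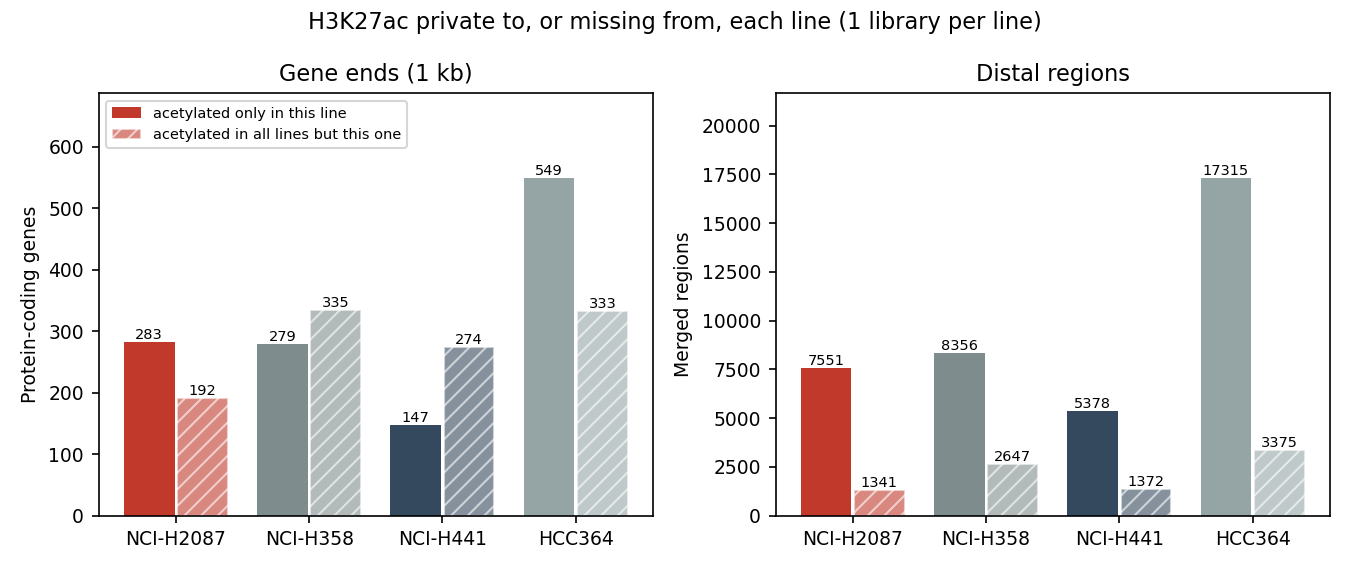
Number of protein-coding genes (left) and distal merged regions (right) acetylated only in a line (solid bars) or in all lines but that one (hatched bars), with NCI-H2087 first. For NCI-H2087 the counts are 283 and 192 genes and 7551 and 1341 regions, and HCC364 has the most private genes (549) and regions (17315).

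A strict form of the call asked that no H3K27ac peak of the missing line or lines lie within 5 kb of an end. It kept 174 gained genes (0.871% of all genes) and 118 lost genes (0.591%). The other 109 gained genes had a peak of another line 1 to 5 kb away, and 74 lost genes had one of NCI-H2087 there. At the border, TNFRSF19, a receptor of the tumour necrosis factor family, was gained with an NCI-H441 peak 1014 bp from an end. MYO1C, a myosin motor, was lost with an NCI-H2087 peak 1007 bp away.

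The leading gained genes included 6 transcription factors of development. Ranked were the strict gained genes with H3K4me3 and RNA polymerase II of NCI-H2087 at an end, 81 in all, by H3K27ac fold over local background. The posterior homeobox gene HOXB8 (chr17:48612346-48615292) had an NCI-H2087 H3K27ac fold of 25.1. HOXB9 reached 22.01 and HOXA10 19.9, DMRT1, a regulator of testis development, reached 22.01, and ISL2, a LIM homeobox factor of motor neurons, 19.7. HHEX, a homeobox factor of the foregut, liver and thyroid, had a fold of 13.1. None of these 6 genes had a peak of another line within 5 kb of an end. At HHEX and HOXB8 the nearest one was of HCC364, 38033 and 6631 bp away. H3K4me3 stood at 138-fold over background at HOXB8 and 113-fold at HHEX, whereas polymerase folds there were 4.25 and 5.77.

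Other leading gained genes encode surface, secreted and transport proteins. IGDCC4, an immunoglobulin superfamily receptor, had an H3K27ac fold of 21.5 in NCI-H2087. The endothelial lipase gene LIPG reached 12.5, and SERPINB3, a protease inhibitor known as a squamous carcinoma antigen, 10.6. SELENOP, the selenium-carrying plasma protein, had 10.2 and SLC5A1, a sodium-glucose cotransporter, 10.0. TMDD1 (14.5), NBPF6 (12.8), NRIP3 (12.6) and ANKRD18B (11.0) complete the 15. NKX2-1 of NCI-H2087 sat at an end of 12 of the 15, all but TMDD1, NBPF6 and SERPINB3. Its share was 77.3% of genes acetylated in all lines and 50% of all strict gained genes. The 12 of 15 therefore does not set these genes apart from genes acetylated in all lines. Among the other lines, NKX2-1 was at an end of NRIP3 in all 3 and of none of the other 14 genes. At LIPG the NCI-H2087 polymerase fold was 30.4, the highest of the 15.

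**Figure D2:**
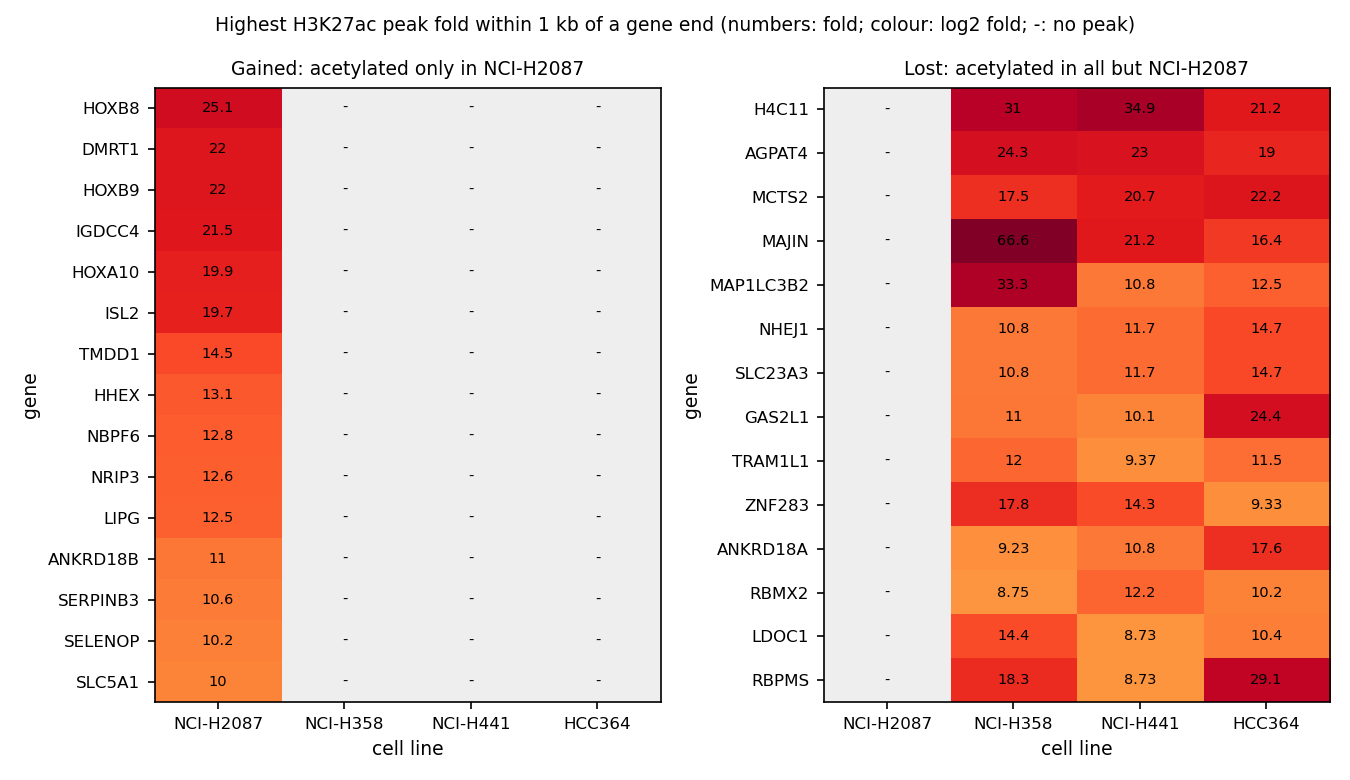
H3K27ac fold over local background of the strongest peak within 1 kb of a gene end, for the 15 leading gained genes (left) and the 14 leading lost genes (right), with a column for each line and a dash where the list has no peak. Folds run from 10.0 (SLC5A1) to 25.1 (HOXB8) in NCI-H2087 on the left, and the columns of the other lines are empty by the choice of genes.

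The 250 bases before the annotated start are shown for the 4 leading gained and the 4 leading lost genes whose H3K27ac lies within 1 kb of that start, so that the promoters behind the calls can be read. They are RefSeq sequences of build GRCh38.p14, printed 5′ to 3′ on the strand of the gene. Capitals mark a match, on either strand, to a motif. The NKX2-1 motif was CTCAAG, the forkhead (FOXA) motif was TGTTTAC or the form TGTTTGC, the AP-1 motif was TGANTCA, the SOX motif was CATTGT, and the TATA box was TATAAA. No 2 of these matches overlap in the promoters shown. The first 4 belong to gained genes, IGDCC4 (chr15:65422948-65423197, minus strand), ISL2 (chr15:76336523-76336772, plus strand), TMDD1 (chr12:51814926-51815175, minus strand) and HHEX (chr10:92689705-92689954, plus strand).
IGDCC4: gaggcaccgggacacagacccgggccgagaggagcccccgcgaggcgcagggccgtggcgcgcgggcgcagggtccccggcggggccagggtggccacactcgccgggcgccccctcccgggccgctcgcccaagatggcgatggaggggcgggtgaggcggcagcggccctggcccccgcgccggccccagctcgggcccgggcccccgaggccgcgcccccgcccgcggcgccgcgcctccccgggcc
ISL2: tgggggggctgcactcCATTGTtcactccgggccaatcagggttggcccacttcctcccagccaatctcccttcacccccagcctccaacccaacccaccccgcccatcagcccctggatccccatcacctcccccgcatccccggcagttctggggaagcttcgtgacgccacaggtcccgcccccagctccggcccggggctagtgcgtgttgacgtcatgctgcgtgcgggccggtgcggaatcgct
TMDD1: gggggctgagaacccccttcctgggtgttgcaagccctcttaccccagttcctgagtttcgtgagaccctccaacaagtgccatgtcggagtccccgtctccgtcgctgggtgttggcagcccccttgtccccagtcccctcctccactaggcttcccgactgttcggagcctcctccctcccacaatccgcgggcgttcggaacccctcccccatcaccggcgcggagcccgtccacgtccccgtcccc
HHEX: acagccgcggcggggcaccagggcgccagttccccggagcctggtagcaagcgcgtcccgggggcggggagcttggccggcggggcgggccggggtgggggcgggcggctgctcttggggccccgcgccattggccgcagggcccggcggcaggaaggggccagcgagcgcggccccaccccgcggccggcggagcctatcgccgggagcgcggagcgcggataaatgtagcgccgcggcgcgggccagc
The next 4 belong to lost genes, H4C11 (chr6:27823842-27824091, plus strand), AGPAT4 (chr6:161274062-161274311, minus strand), MCTS2 (chr20:31547129-31547378, plus strand) and MAJIN (chr11:64972109-64972358, minus strand).
H4C11: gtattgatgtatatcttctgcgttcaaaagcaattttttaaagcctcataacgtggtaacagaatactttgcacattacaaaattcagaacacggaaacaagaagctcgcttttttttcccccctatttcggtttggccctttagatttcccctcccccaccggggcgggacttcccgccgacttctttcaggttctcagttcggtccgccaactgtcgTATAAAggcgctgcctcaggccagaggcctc
AGPAT4: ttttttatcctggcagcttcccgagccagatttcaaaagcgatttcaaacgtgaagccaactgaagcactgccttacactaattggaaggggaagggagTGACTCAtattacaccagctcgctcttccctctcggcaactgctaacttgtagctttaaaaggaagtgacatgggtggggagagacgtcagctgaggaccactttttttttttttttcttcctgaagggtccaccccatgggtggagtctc
MCTS2: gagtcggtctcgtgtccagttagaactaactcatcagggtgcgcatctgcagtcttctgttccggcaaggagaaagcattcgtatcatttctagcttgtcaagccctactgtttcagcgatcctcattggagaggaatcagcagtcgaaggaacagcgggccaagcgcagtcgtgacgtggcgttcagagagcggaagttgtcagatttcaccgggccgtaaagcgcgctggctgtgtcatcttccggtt
MAJIN: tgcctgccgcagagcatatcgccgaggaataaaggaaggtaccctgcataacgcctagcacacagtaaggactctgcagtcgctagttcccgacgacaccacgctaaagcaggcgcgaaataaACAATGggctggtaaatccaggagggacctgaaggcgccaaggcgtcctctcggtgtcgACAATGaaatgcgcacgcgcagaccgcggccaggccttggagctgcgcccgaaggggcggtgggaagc

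The gained genes shown also had to carry H3K4me3 and polymerase of NCI-H2087 at an end, and the lost genes did not. The 2 sets were thus picked by unlike rules and are only described. The 4 gained promoters were rich in G and C, at 85.6% in IGDCC4, 68.0% in ISL2, 66.8% in TMDD1 and 81.2% in HHEX. The 4 lost ones held 48.0% in H4C11, 47.6% in AGPAT4, 53.6% in MCTS2 and 60.0% in MAJIN, and the median of all 15812 promoters of the table was 62.4%. The observed over expected ratio of CpG was 0.830, 0.590, 0.662 and 0.944 in the gained promoters. It was 0.934, 0.424, 1.01 and 0.981 in the lost ones, against a median of 0.737. None of the 8 held the NKX2-1 or FOXA letters, which occur in 9.44% and 4.69% of all promoters of this length. ISL2 held a SOX match 234 bases before the start, and MAJIN held 2, at 127 and 68 (6.68% of all promoters have one). AGPAT4 had an AP-1 match at 151 (5.05%), and the histone gene H4C11 a TATA match at 31 (9.25%). No shares over all gained or lost genes are given, because the promoter table holds 217 of 283 gained genes (76.7%) and 150 of 192 lost genes (78.1%), below the 80% needed, and the check is void.

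An annotated end is not always a start. Of the 217 gained genes with a known start, 153 (70.5%) were acetylated within 1 kb of it in NCI-H2087, and of 150 lost genes 122 (81.3%) were so in the other 3 lines. For common genes the share was 94.8% (7815 of 8243). At DMRT1, HOXA10 and NBPF6 the gained peak lay near the other end or away from the listed start. The cell cycle inhibitor CDKN1A was gained at its outermost 5′ end, with a fold of 23.1 in NCI-H2087, while its listed start, further inside the gene, was acetylated in all 4 lines. The tumour suppressor gene RASSF1 was lost at its 3′ end, with folds of 20.0, 11.9 and 21.1 in the 3 other lines, and its listed start was acetylated in all 4 lines. The nearest NCI-H2087 peak was 1162 bp from that 3′ end. Some genes have near-identical copies between which reads could be split (NBPF6, ANKRD18A and ANKRD18B, GSTT4, SPAG11A, H4C11, MAP1LC3B2, MCTS2 and FCGR3A), and their calls are uncertain. ANKRD18B was gained and its copy ANKRD18A was lost.

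A further 39 strict gained genes had neither H3K4me3 nor polymerase of NCI-H2087 at an end. The 5 with the highest H3K27ac fold were the hair keratin-associated gene KRTAP19-1 (15.0), DNAJC5G (10.7), the prothrombin gene F2 (7.85), the orphan receptor gene GPR21 (7.52) and GSTT4 (7.48). SPAG11A, an epididymal defensin-like gene, had the same fold as GSTT4. At KRTAP19-1 NCI-H2087 had NKX2-1, FOXA1, FOXA2, c-Jun and H3K4me1 peaks, and NKX2-1 was also present there in NCI-H441 and HCC364. H3K4me1 marked an end of F2 and of DNAJC5G in all 4 lines.

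The leading lost genes, ranked by the lowest fold of the 3 other lines, differ widely in function. H4C11, which encodes histone H4, had H3K27ac folds of 31.0 (NCI-H358), 34.9 (NCI-H441) and 21.2 (HCC364), with the nearest NCI-H2087 peak 11609 bp away. AGPAT4, an acyltransferase of phospholipid synthesis, had folds of 24.3, 23.01 and 19.0 in the same lines with the nearest NCI-H2087 peak 35111 bp away. MAJIN, which tethers meiotic telomeres to the nuclear envelope, had 66.6, 21.2 and 16.4. MCTS2, an imprinted retrogene, had 17.5, 20.7 and 22.2. MAP1LC3B2, a copy of an autophagy gene, had 33.3, 10.8 and 12.5.

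NHEJ1, a DNA end-joining factor, and its neighbour SLC23A3 shared 1 set of peaks, with folds of 10.8 (NCI-H358), 11.7 (NCI-H441) and 14.7 (HCC364). GAS2L1, a linker of actin and microtubules, had folds of 11.0, 10.1 and 24.4 in those lines, and the RNA-binding protein gene RBPMS 18.3, 8.73 and 29.1. TRAM1L1, ZNF283, ANKRD18A, RBMX2 and LDOC1 complete the leading 14, with a lowest fold in the 3 lines between 8.73 (LDOC1) and 9.37 (TRAM1L1). RBMX2 and LDOC1 are on the X chromosome.

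Of these 14 lost genes, 11 had H3K4me3 of NCI-H2087 at an end, all but MCTS2, MAJIN and MAP1LC3B2. The H3K4me3 fold was 125 at GAS2L1 and 66.7 at RBMX2, and only 4.24 at H4C11. Polymerase of NCI-H2087 was present at NHEJ1 and SLC23A3 (the shared peak, fold 5.18), ANKRD18A (6.77) and RBMX2 (7.78). NKX2-1 of NCI-H2087 was at an end of MAP1LC3B2, NHEJ1, SLC23A3 and ANKRD18A. In the other lines NKX2-1 was at an end of 9 of the 14 (NCI-H358), 10 (NCI-H441) and 12 (HCC364).

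H3K4me3 was present at most lost genes as a whole. NCI-H2087 had an H3K4me3 peak within 1 kb of an end at 80.2% of lost genes and 71.7% of gained genes, beside 98.5% of genes acetylated in all lines and 16.7% of genes acetylated in none. RNA polymerase II was at 23.96% of lost genes (95% Clopper-Pearson interval 18.1 to 30.6%) and 44.9% of gained genes (39.0 to 50.9%). The share was 94.7% at common genes and 2.93% at genes acetylated in none. Of the 192 lost genes, 111 had H3K4me3 without polymerase, 43 both, 3 polymerase alone and 35 neither. Of the 283 gained genes, 86 had H3K4me3 without polymerase, 117 both, 10 polymerase alone and 70 neither. Intervals here and below cover counting error only and not differences between libraries. For genes they also count neighbours that share a peak, such as NHEJ1 and SLC23A3, as independent, so they can be too narrow.

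Where the marks were present, their median folds were lower than at common genes. The median H3K4me3 fold of genes with a peak was 62.4 at gained and 48.4 at lost genes, and 113 at common genes. The median polymerase fold was 7.02 at gained, 6.15 at lost and 17.8 at common genes. Among the 118 strict lost genes, 102 had H3K4me3, 25 polymerase and 37 NKX2-1, and 5 had none of the other 10 NCI-H2087 lists at an end.

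**Figure D3:**
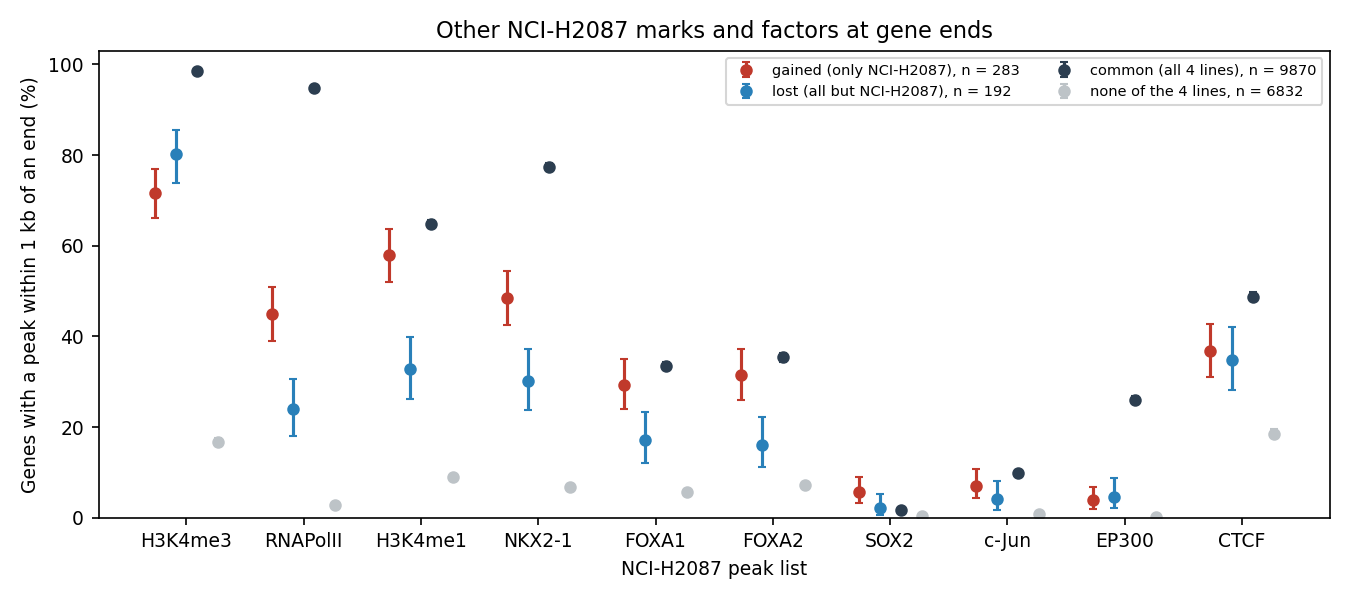
Percent of genes with a peak of each of the other 10 NCI-H2087 lists within 1 kb of an end, for gained, lost and common genes and genes acetylated in no line (bars are 95% Clopper-Pearson intervals). H3K4me3 is at 71.7% of gained and 80.2% of lost genes, whereas RNA polymerase II is at 44.9% and 23.96%.

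NKX2-1 and the forkhead factors were more frequent at gained than at lost genes. NKX2-1 of NCI-H2087 was at 48.4% of gained and 30.2% of lost genes, FOXA1 at 29.3% and 17.2%, and FOXA2 at 31.4% and 16.1%. SOX2 was at 5.65% of gained and 2.08% of lost genes, and EP300 at 3.89% and 4.69%. H3K4me1 was at 58.0% and 32.8%, c-Jun at 7.07% and 4.17%, and CTCF at 36.7% and 34.9%. The 95% intervals of gained and lost genes do not overlap for NKX2-1, FOXA1, FOXA2 and H3K4me1, and overlap for SOX2, EP300, c-Jun and CTCF. With 1 library per antibody and genes that share peaks, this is a description and not a test. At common genes NKX2-1 was at 77.3%, FOXA1 at 33.5%, FOXA2 at 35.4%, EP300 at 26.1% and SOX2 at 1.75%, so that NKX2-1 and EP300 had a higher share and SOX2 a lower share there than at gained genes, while the common shares of FOXA1 and FOXA2 lay within the intervals of gained genes (24.1 to 35.0% and 26.1 to 37.2%). At genes acetylated in none, the shares were 6.84% for NKX2-1, 5.69% for FOXA1 and 7.23% for FOXA2. In the other lines NKX2-1 followed the acetylation. It stood at 19.1% (NCI-H358), 22.97% (NCI-H441) and 21.9% (HCC364) of gained genes, and at 54.7%, 64.1% and 69.3% of lost genes in the same order.

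Lists of genes by pathway and cell type, 594 genes in all, held 22 gained and 6 lost genes. HOX genes made up 11 of the 22, from 39 HOX genes in the lists, and none was lost. Gained were 40% of 10 HOXB genes and 24.1% of 29 other HOX genes, beside 1.42% of all genes. The 11 are HOXB7, HOXB8, HOXB9, HOXB13, HOXA7, HOXA10, HOXA11, HOXC4, HOXC5, HOXC6 and HOXC9, and neighbours share peaks (HOXB7 and HOXB8 both 25.1). The strict call kept 8 of them. HCC364 had a peak 1517 bp from an end of HOXB7, 2856 bp from HOXA7 and 3700 bp from HOXC9. HCC364 was itself acetylated at an end of 3 HOXB and 3 other HOX genes. The other 555 list genes held 11 gained genes, or 6 lost ones, with at most 2 in a list, shares of the same order as among all genes.

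Among those 11, AQP5, a water channel of alveolar type 1 cells and glands, had an NCI-H2087 fold of 11.6 with NKX2-1, FOXA1 and FOXA2 at the end. NCI-H441 and HCC364 also had NKX2-1 there, and their nearest H3K27ac peaks were 1195 and 1190 bp away. The growth factor receptor gene FGFR4 had a fold of 7.69, an H3K4me3 fold of 108 and the nearest H3K27ac of another line 35637 bp away. HLA-DPA1, of MHC class II, had a fold of 8.46, with an HCC364 H3K27ac peak 4348 bp from an end. GKN2, a gastrokine of the stomach that is also made in lung, had 5.62, with NKX2-1, FOXA1, FOXA2 and SOX2 at the end. The lower folds were those of UCHL1 (4.86), CYP4F11 (5.02), CDKN1C (5.36), ABCC2 (3.74) and ESAM (3.73). At ABCC2 the nearest H3K27ac of the other lines was 2004 (NCI-H358), 1611 (NCI-H441) and 1539 (HCC364) bp away. HCC364 had a peak 4677 bp from an end of CDKN1C. At ESAM the distance was 3108 bp for NCI-H441 and 3721 bp for HCC364.

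Lost list genes included IRX3, an Iroquois homeobox factor, with H3K27ac folds of 36.6 (NCI-H358), 7.67 (NCI-H441) and 21.3 (HCC364) and an H3K4me3 fold of 57.3 in NCI-H2087. The fibronectin gene FN1 had 30.2, 13.8 and 16.6 in the same lines. Its NCI-H2087 peak lay 1459 bp from the end, with an H3K4me3 fold of 68.2. FZD1, a WNT receptor gene, had folds of 5.45, 5.36 and 5.10 and the nearest NCI-H2087 H3K27ac 120757 bp away. NCI-H2087 had NKX2-1, SOX2 and H3K4me3 peaks at its end. HPRT1, of purine salvage and on X, had 8.19, 6.35 and 8.57 and an H3K4me3 fold of 44.3 in NCI-H2087. The sixth was FCGR3A, with folds of 17.2, 12.8 and 12.7.

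The 7551 distal regions gained in NCI-H2087 are 10.7% of all distal regions and 23.2% of those acetylated in NCI-H2087. The number private to NCI-H358 was 8356, to NCI-H441 5378 and to HCC364 17315. The 1341 lost regions are 1.91% of distal regions, and the regions missing only in another line number 2647 (NCI-H358), 1372 (NCI-H441) and 3375 (HCC364). Leaving out 1 other line raised the number of lost regions, to 3211 without NCI-H358, 3178 without NCI-H441 and 3309 without HCC364. Gained regions were small and weak. Their median width was 442 bp and their median fold 4.71, against 2990 bp and 11.8 in the 11080 common regions. The regions private to another line were alike in this, with medians of 492.5 bp and 5.08 (NCI-H358), 469 bp and 4.91 (NCI-H441) and 542 bp and 4.62 (HCC364). Lost regions had a median width of 1769 bp and median folds of 6.77 (NCI-H358), 6.32 (NCI-H441) and 6.93 (HCC364). Of gained regions, 48.6% had within 5 kb an H3K27ac peak of at least 1 of the 3 other lists, whether or not that peak was shared with NCI-H2087. Of lost regions, 27.4% had a peak of the single NCI-H2087 list within 5 kb, a narrower base.

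NKX2-1 went with acetylation at both kinds of distal region. At gained regions NKX2-1 was present in 53.8% in NCI-H2087, against 20.1% (NCI-H358), 33.4% (NCI-H441) and 20.7% (HCC364). At lost regions it was present in 39.8% in NCI-H2087, against 78.1%, 85.0% and 82.0% in the other lines. H3K4me1 marked 75.9% of gained regions in NCI-H2087, against 44.8%, 50.3% and 42.0%. It marked 50.5% of lost regions in NCI-H2087, against 87.9%, 88.9% and 89.7%. NCI-H2087 was the highest line at gained and the lowest at lost regions for both antibodies. The differences from the mean of the other lines were 29.1 and 30.2 percentage points at gained regions and -41.9 and -38.4 at lost regions, for NKX2-1 and H3K4me1. An exact permutation of 1 line against 3 can give no p below 0.25, and each of the 4 one-sided tests gave 0.25.

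Over all 4 lines a test with a smaller attainable p was possible. Regions private to a line carried that line's NKX2-1 more often than the NKX2-1 of the other lines, by 29.1 percentage points for NCI-H2087, 36.4 for NCI-H358, 48.6 for NCI-H441 and 28.4 for HCC364. The mean was 35.6 ± 9.38 (SD, n = 4 lines). For H3K4me1 the differences were 30.2, 45.6, 47.8 and 47.3, with a mean of 42.7 ± 8.40 (SD, n = 4 lines). The exact one-sided permutation of the line labels gave p = 0.0417 for each (adjusted p = 0.0417 over the 2 tests), the smallest that 24 assignments allow, with 4 of 4 lines in the same direction. NCI-H2087 had the smallest H3K4me1 difference of the 4 lines. It also had the shortest H3K4me1 list, with 91807 peaks, against 121789 (HCC364), 113605 (NCI-H358) and 99062 (NCI-H441). The NKX2-1 list was longest in NCI-H441, with 90578 peaks, against 87160 (HCC364), 75747 (NCI-H358) and 75657 (NCI-H2087). Neither the difference between lines nor the part of list length in it was tested.

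**Figure D4:**
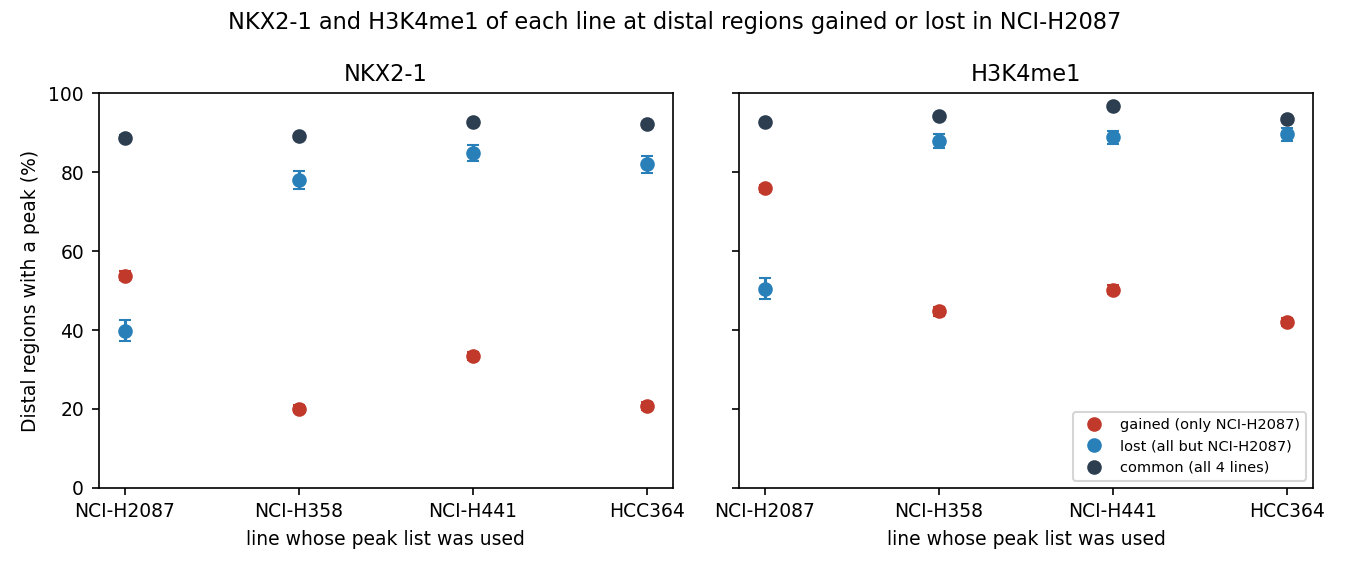
Percent of distal regions that overlap an NKX2-1 (left) or H3K4me1 (right) peak of each line, for regions gained in NCI-H2087, lost in NCI-H2087 and common to all lines (bars are 95% Clopper-Pearson intervals). NCI-H2087 is above the other lines at gained regions (53.8% NKX2-1, 75.9% H3K4me1) and below them at lost regions (39.8% and 50.5%).

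Many gained regions carried H3K4me1 in lines where they were not acetylated. Of the 7551, 20.8% had H3K4me1 in all 3 other lines, 24.6% in 2, 25.5% in 1 and 29.1% in none. NKX2-1 was present in all 3 other lines at 9.32% and in none at 57.9%. Conversely, of the 1341 lost regions NCI-H2087 had both NKX2-1 and H3K4me1 at 27.1%, NKX2-1 alone at 12.8%, H3K4me1 alone at 23.4% and neither at 36.8%. At 23.5% of lost regions none of the other 10 NCI-H2087 lists had a peak.

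Several factors met at part of the gained regions. FOXA1 of NCI-H2087 was at 45.2% of gained regions, 30.3% of lost and 71.2% of common ones. FOXA2 was at 49.1%, 33.9% and 73.4%. SOX2 was at 10.7% of gained regions (95% interval 10.1 to 11.5%), 1.86% of lost (1.21 to 2.74%) and 19.1% of common ones. c-Jun was at 16.4%, 14.8% and 61.0%, and EP300 at 3.28%, 1.12% and 20.9%. The EP300 and SOX2 lists were the shortest of NCI-H2087, with 7406 and 9262 peaks against 75657 for NKX2-1. Polymerase was at 7.02%, 4.18% and 47.7%. H3K4me3 and CTCF ran the other way between gained and lost regions. H3K4me3 was at 7.60% of gained, 10.9% of lost and 28.8% of common regions, and CTCF at 8.69%, 16.6% and 30.1%. Of the 6 factors NKX2-1, FOXA1, FOXA2, SOX2, c-Jun and EP300, 3 or more were at 37.2% of gained, 20.5% of lost and 70.8% of common regions. None of the 6 was at 34.7%, 45.0% and 6.97%.

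**Figure D5:**
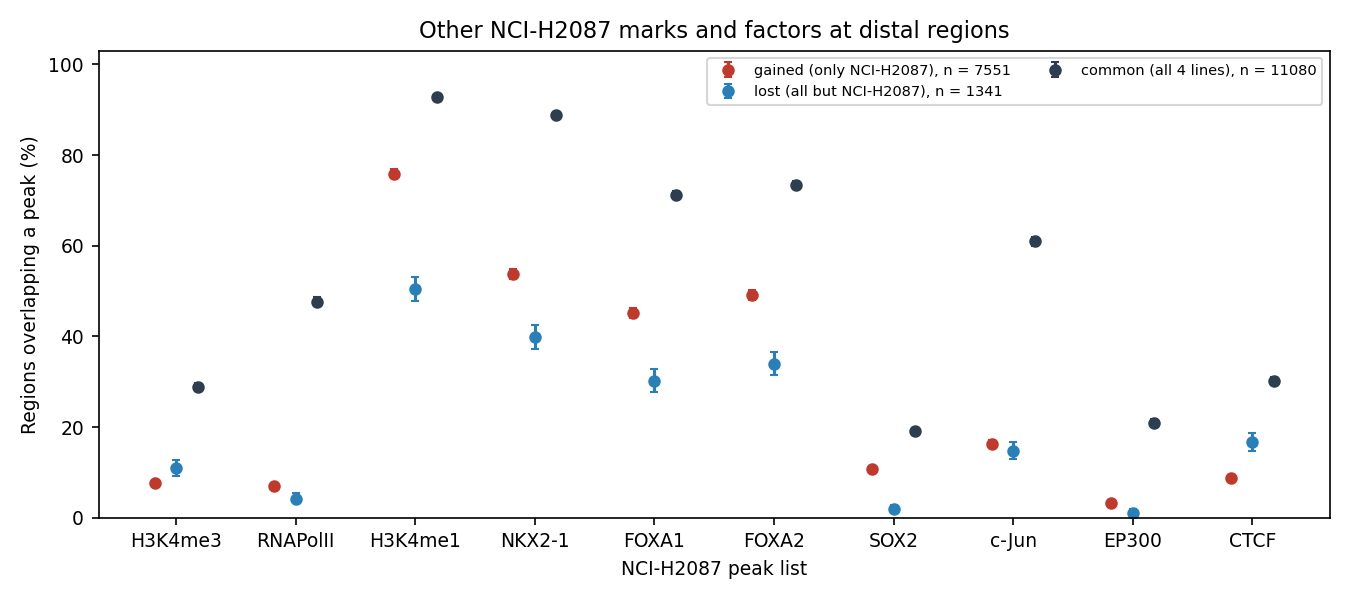
Percent of distal regions that overlap a peak of each of the other 10 NCI-H2087 lists, for gained, lost and common regions (bars are 95% Clopper-Pearson intervals). SOX2 is at 10.7% of gained and 1.86% of lost regions, and H3K4me3 and CTCF are the lists with a higher share at lost than at gained regions.

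Width differs between the classes, and wider regions meet more peaks. Windows of 500 bp on either side of a summit were centred on the NCI-H2087 summit at gained regions. At lost and common regions the summit was that of the acetylated line with the highest fold. This is never NCI-H2087 at lost regions and need not be at common ones. In these windows SOX2 was at 16.9% of gained regions (16.1 to 17.8%), 1.64% of lost and 15.7% of common ones (15.1 to 16.4%). The order of gained and common regions turned while their intervals overlapped, but the windows were not placed alike, so the order is not interpreted. EP300 was then at 5.56%, 1.12% and 18.4%. Among regions of 300 to 1000 bp, SOX2 was at 10.4% of 5223 gained, 2.16% of 231 lost and 8.35% of 431 common regions. FOXA1 was at 44.1%, 28.1% and 40.4%, and NKX2-1 at 52.3%, 42.0% and 65.2%. At this width the intervals of gained and common regions overlap for SOX2 and FOXA1, and the gained share is the lower one for NKX2-1. H3K4me3 was at 7.37%, 22.5% and 49.2% of regions of this width, and CTCF at 8.27%, 26.4% and 36.0%. Gained regions with a peak had a higher median H3K27ac fold and were wider than those without it, for each of the 10 lists. The median fold was 6.42 with EP300 and 4.69 without it, 6.22 and 4.66 for polymerase, and 5.78 and 4.61 for SOX2. The median width was 768.5 and 436 bp for EP300 and 609 and 428 bp for SOX2. With all 6 factors the median fold was 7.03 and the median width 842.5 bp (120 regions), and with none 4.18 and 376.5 bp (2622 regions).

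The strongest gained region, inside NTM, a neuronal cell adhesion gene, had a fold of 27.7 in NCI-H2087 (chr11:131484287-131488481). It carried all 6 factors, H3K4me1, CTCF and polymerase in NCI-H2087, and neither NKX2-1 nor H3K4me1 in any other line. The local background there, relative to the median of each line, was 1.62 in NCI-H2087 and 1.00 in NCI-H358 and in NCI-H441. HCC364 had no value there, and the part of the background was not tested. The other leading gained regions are named by their nearest gene, which can be far off. Regions 15009 bp from KCNMB2, a potassium channel subunit, 22573 bp from GNA13, a G protein subunit, and 125482 bp from AFDN, an adherens junction protein, had folds of 24.6, 24.1 and 23.4. The region nearest to WNT7A, a WNT ligand (82217 bp), had 21.7. Those assigned to ANO10, MYT1L (314519 bp), LPIN2, LIPG and IBTK followed, with folds of 20.3 to 20.9. At the MYT1L region no line but NCI-H2087 had a value of local background. All 10 had NKX2-1 of NCI-H2087 and 9 had H3K4me1. The shares were 53.8% and 75.9% of all gained regions, and 88.8% and 92.7% of common ones. The 10 were ranked by fold and all are wider than the median gained region (442 bp). The counts therefore do not set them apart from common regions. At the GNA13 region the other lines had H3K4me1 in 3 of 3 and NKX2-1 in NCI-H441 and HCC364. The LIPG region lies 55712 bp from LIPG, a gene that was itself gained.

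The strongest lost region, inside ZNF875, had folds of 38.1 (NCI-H358), 38.8 (NCI-H441) and 31.9 (HCC364) (chr19:37333108-37335558), and no peak of any other NCI-H2087 list. Nor had the lost regions whose nearest genes were ZNF722 (71651 bp) and SLC10A2 (944454 bp). Local background had no value in any line at the ZNF722 region. At the SLC10A2 region it had none in NCI-H2087, against 0.988 (NCI-H358), 0.899 (NCI-H441) and 0.810 (HCC364). Its part in the missing NCI-H2087 peaks was not tested. The SLC10A2 region had folds of 19.6, 56.0 and 31.4 in the 3 other lines, and NKX2-1 and H3K4me1 in each. In contrast the region 22790 bp from NXPH2, with folds of 36.4, 36.1 and 21.1, carried NKX2-1, FOXA1, FOXA2, c-Jun and H3K4me1 in NCI-H2087. The EDIL3 region reached 92.2 in NCI-H358, against 21.9 in NCI-H441 and 18.5 in HCC364. All 10 leading lost regions had NKX2-1 in the 3 other lines, and in NCI-H2087 NKX2-1 was at 4 of them, those of NXPH2, ONECUT3, EDIL3 and PI4KA. The remaining regions were nearest to SPCS3, TCIM and UNC93A. NKX2-1 was in all 3 other lines at 67.4% of all lost and 84.0% of common regions. In NCI-H2087 it was at 39.8% of lost and 88.8% of common ones. The 10 were ranked by fold and all are wider than the median lost region (1769 bp), so their counts do not set them apart.

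Regions and genes went together. Of the 283 gained genes, 54.1% (48.1 to 60.0%) had a gained distal region within 50 kb, against 31.8% of all genes. Of the 192 lost genes, 25% (19.0 to 31.7%) had a lost region within 50 kb, against 8.91% of all genes. Both measures come from the same H3K27ac lists and are given as description.

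With regions assigned to the closest gene no more than 50 kb off, GCLC, the catalytic subunit of glutathione synthesis, and MAP4K3, a kinase of nutrient signalling, had 10 gained regions each. CD55, an inhibitor of complement, PAWR, RAB10 and TMC5 had 8 each. ABCC5, ABHD17C, AKAP6, LPP, LYN and SHLD1 had 7 each. Of these 12 genes, 10 were acetylated at an end in all 4 lines. The median fold of the gained regions of a gene ran from 3.71 (LYN) to 5.23 (SHLD1), and it was above the 4.71 of all gained regions at SHLD1, ABHD17C (4.98) and LPP (4.91). NKX2-1 of NCI-H2087 was at 2 of 10 regions at GCLC, 3 of 10 at MAP4K3 and 1 of 8 at RAB10, but at 5 of 7 at ABCC5 and at ABHD17C and at 6 of 7 at AKAP6. AKAP6 was the gene of the 12 with no end acetylated in any line. The local background at AKAP6, relative to the median of each line, was 2.21 in NCI-H2087, against 1.53 (NCI-H358), 1.38 (NCI-H441) and 0.818 (HCC364). It was 1.41 at RAB10 in NCI-H2087, against 1.04, 1.08 and 0.991 in the other lines. At GCLC it was 0.876 in NCI-H2087, against 0.932, 1.15 and 0.808, the last of which is the lowest level of HCC364. The part of the local background in these counts was not tested.

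Joining gained regions within 10 kb of each other gave 6022 domains, of which 4847 were single regions. The domains with the most regions lay in TTLL11 (10 regions over 25.01 kb), ANKRD36 (9), GCLC (8), SPNS2 (7), and SIPA1L2 and CAMKMT (6 each). NKX2-1 of NCI-H2087 was at 1 of the 10 regions in TTLL11 and none of those in ANKRD36, but at all 6 in SIPA1L2 and all 6 in CAMKMT. The 1341 lost regions gave 1266 domains, of which 1205 were single regions. Fewer regions join less often, so the 2 sets are not compared. The lost domain with most regions held 6 regions over 33.6 kb at RHOU, a gene that was itself lost at its start. The 6 regions had NKX2-1 in NCI-H2087 at 4, in NCI-H358 at 6, in NCI-H441 at 2 and in HCC364 at 0. NCOA3, a nuclear receptor coactivator gene, also had 6 lost regions. LMTK3 had 4, and EIF4H, FCRLB, the actin crosslinker gene FLNA, LRBA, NDUFA12 and ZMYND8 had 3 each. At NCOA3 and ZMYND8, neighbours on chromosome 20, the local background was 0.867 in NCI-H2087, against 1.16 (NCI-H358), 1.17 (NCI-H441) and 1.64 (HCC364).

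Local background was close to the library median at gained regions and lower in NCI-H2087 at lost ones. The sources used here do not state whether it was taken from input or from the ChIP library itself, so it cannot be read as copy number. The median relative value at gained regions was 1.00 in NCI-H2087, against 0.9699 (NCI-H358), 0.984 (NCI-H441) and 0.991 (HCC364). At lost regions it was 0.865 in NCI-H2087, against 0.955, 1.00 and 1.01. At common regions it was 0.944 in NCI-H2087, against 0.963, 1.02 and 1.00. Lost genes showed 0.798 in NCI-H2087, against 0.860, 0.881 and 0.913. Common genes showed 0.903, against 0.909, 0.978 and 0.944, and gained genes 0.952, against 0.895, 0.923 and 0.974. The lowest level differs between lines, as the values on X below show, so the order between lines is uncertain for low values. Of the 1341 lost regions, 23 lay in stretches of at least 500 kb without a peak of any NCI-H2087 list. Of the 7551 gained regions, 379 lay in such stretches of NCI-H358, 146 of NCI-H441 and 70 of HCC364. The part of copy number in these calls was not tested.

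Gains and losses were uneven over chromosomes. On chromosome 19 only 12.0% of the distal regions acetylated in NCI-H2087 were gained, the lowest share of any chromosome, and 19.2% of those acetylated in the other 3 lines were lost. On X 20.4% were lost, the highest share, and on 18 18.6%, against 10.8% over all chromosomes. Chromosome 15 had the lowest share of lost regions, 4.15%, and chromosome 14 the highest share of gained ones, 28.9%. Of gene ends, 26 of 1451 genes were lost on 19 (1.79%), 16 of 848 on X (1.89%) and 8 of 270 on 18 (2.96%), beside 0.961% of all genes. Chromosomes 22 (2.22%) and 8 (1.82%) also had high shares of lost genes, but not of lost regions (9.80% and 9.97%). The lost genes on 19 include the adhesion molecule genes ICAM3, ICAM4 and ICAM5, of which ICAM4 and ICAM5 share peaks, and the zinc finger genes ZFP28, ZNF175, ZNF283, ZNF382, ZNF529 and ZNF780B. Over the genome, 7 of 567 genes with a zinc finger symbol were lost (1.23%) and 6 gained (1.06%), near the 0.961% and 1.42% of all genes. Those on X include ATP6AP1, DIAPH2, KLF8 and HPRT1. The relative background on X was 0.702 in NCI-H2087, against 0.790 (NCI-H358), 0.732 (NCI-H441) and 0.808 (HCC364). Each of these is the lowest H3K27ac background of its line over the line's median, so they are upper limits whose order between lines cannot be read. Chromosome 18 stood at the same 0.702 in NCI-H2087. On 19 the value was 0.717 in NCI-H2087, against 0.790, 0.732 and 0.909, of which 0.790 and 0.732 are again at the lowest level.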

How the data were processed

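The 20 peak lists, 1 for each library, were deposited by the authors as narrowPeak files on hg38 (GRCh38). For 5 input libraries no file was analysed here. Per the submitters' processing notes, the tools were MACS2 in versions 2.1.1 and 2.2.7.1, bedtools, Bowtie2 2.2.9, Trimmomatic 0.36 and SAMtools 1.9. Which step each served is not stated in the sources used here. In the deposited lists the fold is a linear ratio of the peak summit to the local background, and the −log10 p and −log10 q are those of the authors' peak caller. The deposited score column was not used. Every list stops just above a −log10 q of 3. A missing peak depends on depth, antibody and threshold and is not a missing mark. Read totals were not used here. Whether the inputs served as control is not stated in the sources used here, so the local background under each fold may be that of input or of the ChIP library itself. The authors' folds describe and rank peaks within a list. Folds of different lists stand side by side without a ranking, apart from 2 rules. Lost genes and lost regions are ordered by their lowest fold. The summit of a lost or common region is that of the line with the highest fold among the lines acetylated there.

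Analyses used chromosomes 1 to 22 and X (0.0610% to 0.502% of a list left out) with Python 3.11.15, numpy 2.4.6, pandas 2.3.3 and scipy 1.17.1. Gene ends are those of GRCh38.p14. The gene table gives no strand, and starts came from the RefSeq promoter table, which matched 15812 of 19974 genes. Antibodies at a gene end or region need 1 bp of overlap. Fold and p were solved for pileup and local background, and over 99.9% of peaks in a list came back to the deposited −log10 p within 0.01. Relative background is the median per 1 Mb (at least 5 peaks) over NKX2-1, H3K27ac and H3K4me1, each divided by its library's median. The functions were tested on simulated peaks. Lines were compared by exact permutation of the 4 lines, and Benjamini-Hochberg adjustment was over 4 and 2 tests. Nothing in the labels gives replicates of a line.

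The members, gene lists and tests were chosen with earlier results of these data known. Named genes are the 15 strict gained genes with H3K4me3 and polymerase by fold, 5 with neither, the first 14 of the 15 strict lost genes by the lowest of 3 folds, the 10 leading gained and lost regions, genes and domains with most regions (ties included), list members and border cases. A few of these items are not reported here. Promoters shown are the first 4 of each rank with an acetylated start and not on chromosome 8, a narrower rule than the one first written. Genes named by chromosome were chosen after their values were seen.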

Additional observations from a re-analysis of the deposited data

How the results depend on the processing

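Of 82 alternative values of the main counts and tests, 63 kept their direction and side of the threshold, or for counts lay within 1.5 times. Many of the 63 are tests of 1 line against 3. These can give no p below 0.25, so keeping their side of the threshold was certain. Only tests could be called reversed, and none was. Of 84 alternative values of single shares and gene counts, 41 stayed the same and 43 moved, labels that carry no direction. With the 30000 strongest peaks of each list there were 349 lost genes (74 of them among the 192), 3274 gained regions and 846 lost regions. The number of gained genes was then 262, but only 117 of them were among the 283. Asking for no peak of the missing lines within 5 kb left 174 gained and 118 lost genes. Leaving out each other line in turn gave 429 to 492 gained genes (430 without NCI-H358), 278 to 367 lost genes (309 without NCI-H358), 9810 to 10838 gained regions and 3178 to 3309 lost regions (3211 without NCI-H358), since fewer lines must then lack or carry a peak. In the tests over regions private to 1 line, leaving out a line gave differences of 33.4 to 35.5 percentage points for NKX2-1 (34.7 without HCC364) and 38.6 to 42.3 for H3K4me1 (40.4 without NCI-H358), with an exact permutation p of 0.167, the smallest that 3 lines allow. With 4 lines, p stayed at 0.0417 under a −log10 q of at least 5, the 30000 strongest peaks, a 5 kb distal limit, the summit windows and the width limit, with differences of 32.2 to 44.9 for NKX2-1 and 38.2 to 43.5 for H3K4me1. All 20 named gained and 15 leading lost genes remained under every setting but that of the annotated start alone. That setting kept 11 and 11, and 4 of the 11 HOX genes, partly because genes without a listed start drop out. The named genes come from the strict call, so neither the 5 kb settings nor leaving out a line could drop them. Stricter peak thresholds could, but these genes were chosen for high folds. At a −log10 q of at least 5, 271 of 286 gained and 175 of 198 lost genes were those of the main call. The number of NCI-H2087 lists with a higher share at gained than at lost regions was 8 of 10 over whole regions, at summits and at 300 to 1000 bp. No paired analysis was possible because each line and antibody is 1 library and the labels pair no samples. The promoter comparison over all members was not run for want of starts.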
